A study of Mus musculus with 12 samples.

Results

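Transcripts of 33 genes that build or run the primary cilium were examined in Ocy454 osteocytes, out of 37583 gene IDs counted. The genes were chosen by name: 9 subunits of intraflagellar transport complex B, 2 of complex A, 5 motor genes, 7 genes of the Bardet-Biedl syndrome (BBS) group, 5 genes of ciliary small GTPases, cargo and lipid, 3 transition zone genes and the 2 polycystins. Of these, 32 were tested and Kif17 was too low to test. Ocy454 is a mouse osteocyte line from the long bones of mice with an SV40 T antigen and a Dmp1-GFP transgene, and the study worked with 1 single-cell sub-clone of it, grown at 37 °C for 14 days before treatment. Control cells (labelled as original cells) and cells labelled as deleted for HDAC4 and HDAC5 (DKO) were left static or placed under fluid flow shear stress (FFSS) by orbital rotation of the dish, with 3 h as the time given for all 4 groups. Each group had 3 libraries, and all 12 were from total RNA of cultured cells. Control and DKO cells are different cell populations, so the deletion and any other difference between them cannot be told apart. Because the labels do not say whether the 3 replicates were separate cultures, p-values measure only the spread between these samples. In bulk RNA, fewer cells with a cilium and less RNA per cell cannot be told apart either.

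The primary cilium is a single antenna of microtubules that grows from the mother centriole of a non-dividing cell. Intraflagellar transport (IFT) carries cargo along it: complex B with the kinesin-2 motor towards the tip, complex A with dynein-2 back to the base. The BBSome moves membrane proteins, the transition zone gates the base, and the polycystins form a channel complex on the ciliary membrane. In osteocytes the cilium is 1 of several proposed sensors of fluid flow, and Hedgehog signalling runs through it in vertebrates. Many cilium genes carry an X-box, a site for RFX transcription factors, near their start.

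The promoters of 7 members are printed because these members led the differences described below or, for Bbs7, because its promoter alone among the 29 members' promoters searched held the whole palindromic motif. All are RefSeq promoters of build GRCm38.p6, which is not the build of the counts, and run from 250 bases before to 50 bases after the gene start (a 90-base stretch for Bbs7). Ift172 lies at chr5:31291065-31291364 on the minus strand, Bbs1 at chr19:4906578-4906877 on the minus strand and Bbs5 at chr2:69646921-69647220 on the plus strand, and these 3 had the lowest fold changes under FFSS in control cells. Arl13b, the lowest member in DKO against control cells, lies at chr16:62846991-62847290 on the minus strand, Tulp3, also among the lowest 3 there, at chr6:128355802-128356101 on the minus strand, Ift20, the highest, at chr11:78536111-78536410 on the plus strand, and the Bbs7 stretch at chr3:36613459-36613548 on the minus strand. Capitals mark the short motif GTTGCC, or in Bbs7 the match to GTTNCCNNGGNAAC, and Tulp3 and Ift20 held neither.
Ift172: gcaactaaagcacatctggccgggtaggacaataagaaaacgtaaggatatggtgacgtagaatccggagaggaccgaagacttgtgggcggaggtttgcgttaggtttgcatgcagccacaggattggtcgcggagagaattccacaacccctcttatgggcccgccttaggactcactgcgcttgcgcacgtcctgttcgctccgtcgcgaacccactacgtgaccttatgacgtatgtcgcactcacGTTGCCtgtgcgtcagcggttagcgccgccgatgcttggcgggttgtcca
Bbs1: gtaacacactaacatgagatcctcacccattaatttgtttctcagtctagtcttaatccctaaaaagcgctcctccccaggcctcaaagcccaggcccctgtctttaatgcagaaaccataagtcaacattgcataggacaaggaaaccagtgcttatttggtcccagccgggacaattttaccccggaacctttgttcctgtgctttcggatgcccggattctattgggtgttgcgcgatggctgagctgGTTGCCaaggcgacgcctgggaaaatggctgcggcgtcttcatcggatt
Bbs5: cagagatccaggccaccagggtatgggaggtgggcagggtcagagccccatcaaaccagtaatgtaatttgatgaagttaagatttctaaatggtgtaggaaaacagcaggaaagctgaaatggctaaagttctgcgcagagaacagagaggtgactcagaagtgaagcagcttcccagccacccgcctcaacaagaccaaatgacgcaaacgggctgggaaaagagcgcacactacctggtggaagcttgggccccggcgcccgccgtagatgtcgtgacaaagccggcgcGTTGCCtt
Arl13b: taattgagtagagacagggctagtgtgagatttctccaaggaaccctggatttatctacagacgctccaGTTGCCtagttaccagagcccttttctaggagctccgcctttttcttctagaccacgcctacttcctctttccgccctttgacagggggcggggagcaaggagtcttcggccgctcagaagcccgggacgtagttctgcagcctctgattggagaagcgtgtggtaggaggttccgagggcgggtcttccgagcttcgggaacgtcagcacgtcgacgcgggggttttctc
Tulp3: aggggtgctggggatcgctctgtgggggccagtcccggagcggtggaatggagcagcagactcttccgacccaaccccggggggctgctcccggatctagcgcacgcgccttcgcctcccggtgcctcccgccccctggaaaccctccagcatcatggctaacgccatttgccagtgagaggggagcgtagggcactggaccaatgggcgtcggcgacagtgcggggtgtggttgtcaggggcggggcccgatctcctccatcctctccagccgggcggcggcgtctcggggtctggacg
Ift20: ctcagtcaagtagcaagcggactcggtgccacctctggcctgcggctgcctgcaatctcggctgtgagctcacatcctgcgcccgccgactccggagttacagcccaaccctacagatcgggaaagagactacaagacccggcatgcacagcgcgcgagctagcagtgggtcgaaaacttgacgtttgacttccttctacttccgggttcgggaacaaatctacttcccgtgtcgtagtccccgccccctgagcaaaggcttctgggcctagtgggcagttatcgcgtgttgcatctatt
Bbs7: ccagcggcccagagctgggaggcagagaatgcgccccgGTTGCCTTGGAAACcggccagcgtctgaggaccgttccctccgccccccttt

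The short motif begins at base 1 of the transcript in Ift172, at base 2 in Bbs1 and at base 43 in Bbs5, and at position -181 from the start in Arl13b. The motif in Bbs7, GTTGCCTTGGAAAC, begins at position -121 and includes the short one. RefSeq promoters were matched by symbol for 29 of the 33 members (not Ift80, Ift81, Ift122 and Tmem67), and both strands were searched. GTTGCC or its reverse complement GGCAAC stood in 11 of the 29 (37.9%: Ift57, Ift88, Ift140, Ift172, Kif3a, Kif17, Dync2h1, Bbs1, Bbs5, Bbs7 and Arl13b), beside 14.1% of the promoters of all 27025 symbols. GTTNCCNNGGNAAC, which is its own reverse complement, stood in 1 of 29 members (3.45%) and 0.529% of all promoters. The letters of both motifs were chosen after several had been looked at, and a match describes letters, not binding.

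Each library held between 17.6 and 19.2 M reads assigned to genes, so that the floor of 3 counts lay between 0.146 and 0.178 CPM, a depth-scaled count with totals adjusted by TMM. Control FFSS replicate 1 stood apart from its group: its counts differed from those of replicates 2 and 3 with a chi-square per degree of freedom of 63.8 and 58.0, beside 2.02 to 6.45 for the other replicate pairs. Its share of reads outside genes was 5.87%, against 9.19% and 10.04% in replicates 2 and 3, and between 5.10% and 5.21% in control static cells. Results under FFSS are therefore given with this library and the main ones also without it. In DKO libraries the share of reads outside genes was 7.07% to 7.14% static and 7.93% to 8.55% under FFSS. Static and FFSS libraries of a genotype thus did not overlap in this share, nor did static control and DKO libraries. A fit with this share as a covariate can therefore take up part of the FFSS or genotype difference. The deleted genes were still counted in the DKO libraries. Hdac5 ranged from 127 to 141 CPM in static and from 71.1 to 90.2 CPM in sheared control libraries, and from 80.2 to 90.8 CPM in static and from 92.4 to 93.3 CPM in sheared DKO libraries, so that it was not lower in the libraries labelled DKO than in control cells under FFSS. Of the 2 IDs of Hdac4, ENSMUSG00000026313 had between 23.9 and 42.6 CPM in control and between 12.1 and 17.0 in DKO libraries. The other, ENSMUSG00000073617, had between 19.7 and 31.1 CPM in control and between 16.1 and 18.1 in DKO libraries. Whole-gene counts of an edited allele do not show whether its product is lost.

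Of 5 osteocyte markers tested, 4 were higher in static DKO than in static control cells, and Pdpn, which encodes podoplanin, was lower (28.4 ± 0.847 CPM in control and 5.11 ± 0.150 in DKO cells, SD, n = 3). The sum over the list of 6 genes was 78.1 to 117 CPM in control static and 62.5 to 184 CPM in control FFSS cells, against 3602 to 3689 CPM in DKO static and 3621 to 4025 CPM in DKO FFSS cells, with Fgf23 at or near 0 in all groups. Sost, which encodes the WNT inhibitor sclerostin, was 1.48 to 12.4 CPM in control static cells and 2042 to 2097 CPM in DKO static cells, and Phex and Mepe were also higher in DKO cells. The sum of 5 chondrocyte markers went from 77.4 to 102 CPM in control static to 2361 to 2950 CPM in DKO static cells, with Col2a1, Col10a1 and Sox9 higher, Acan not past the test (-0.26) and Matn1 at 0 in every control library. A proliferation list of 7 genes summed to 1558 to 1607 CPM in static and 1276 to 1408 CPM in sheared control libraries, and to 1235 to 1270 CPM in static and 1013 to 1058 CPM in sheared DKO libraries. The part of these differences in cell state in the cilium gene results was not tested. Markers of motile cilia stayed low, with a sum over 8 genes of 2.32 to 4.62 CPM in all libraries, and 4 or 5 of the 8 at or under 3 counts in every library of a group.

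In control static cells 31 of the 33 cilium genes were above 1 RPKM (reads per kilobase of exon, scaled as CPM). Arl3, a small GTPase that unloads lipid-modified proteins in the cilium, was highest at 97.9 ± 2.84 RPKM (SD, n = 3). Ift20, the complex B subunit that also sits at the Golgi, followed at 24.6 ± 0.456, and Kifap3, the adaptor of the kinesin-2 motor, at 22.0 ± 0.413. The polycystins had 12.8 ± 0.220 (Pkd2, the channel subunit) and 11.5 ± 0.147 RPKM (Pkd1, the large receptor-like partner). Ift88, the complex B subunit whose loss removes cilia in mice, was among the lowest at 1.44 ± 0.104, and Dync2h1, the heavy chain of dynein-2, had 0.939 ± 0.0585. The median over the 32 members tested was 7.27 RPKM.

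**Figure D1:**
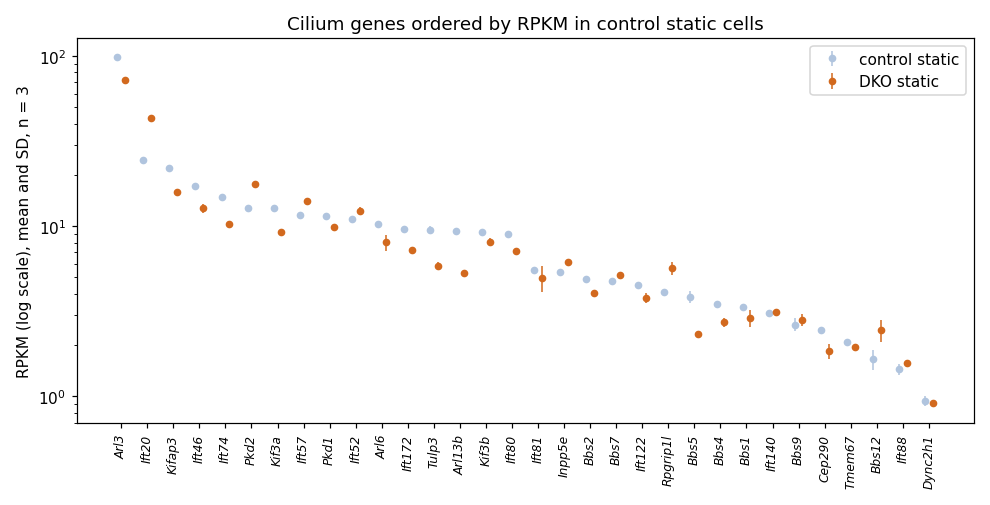
RPKM of the 32 cilium genes tested (log scale), in the order of their control static mean, for control static and DKO static cells; points are means and bars the SD of 3 libraries. Arl3 lies highest at 97.9 RPKM and Dync2h1 lowest at 0.939 RPKM in control static cells.

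Kif17, a homodimeric kinesin of the cilium tip, had 25 counts in all 12 libraries together and failed the filter because 2 or more libraries held 0. Its counts were 5, 2 and 8 in control FFSS and 1, 0 and 0 in DKO FFSS libraries, a ratio of 0.0760 after scaling by library size, with an exact 95% interval of 0.00181 to 0.494 that covers counting error only. In static cells it had 7 counts in control and 2 in DKO libraries, a ratio of 0.300 with an interval of 0.0304 to 1.58 that includes 1. Kif17 shares 74 exon bases with Sh2d5 on the same strand, which had 267 counts. The few Kif17 counts may therefore lack reads from those bases. Reads in bases shared by genes are not counted under HTSeq's default for ambiguous reads, and the counting was not stranded. In all, 9 members share exon bases with a neighbour, and for 6 of these (Kif17, Cep290, Inpp5e, Pkd1, Tmem67 and Bbs12) the neighbour had more than 10% as many counts as the member. Pkd1 shares bases with Tsc2, which had 120% as many counts, and Inpp5e with Pmpca, at 395%. Their levels are therefore uncertain.

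Under FFSS 16 of the 32 cilium genes fell in control cells, and none rose. At a Benjamini-Hochberg adjusted p under 0.05 by edgeR's quasi-likelihood test, the 16 lower members were 50.0% of those tested, where 18.1% of all 14904 genes tested were lower and 17.7% were higher. The median log2 fold change of the members was -0.22, beside 0.0073 over all genes, and 26 of 32 were below 0. At an unadjusted p under 0.05 there were 21 members in either direction, and DESeq2 also found 0 higher. In 17 members all 3 FFSS libraries lay below all 3 static libraries, against 22.0% of all genes, and in 1 member they lay above, against 19.3%. No member passed the 2-fold limit that the study applied, which 5.93% of all genes passed. The lowest member changed by a factor of 1.49. Of the 16, 9 kept the call whichever single library was left out, and 7 (Ift81, Ift122, Bbs9, Arl13b, Arl3, Tulp3 and Pkd1) lost it without 1 of the control static libraries or without control FFSS replicate 2 or 3, with adjusted p values up to 0.109.

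**Figure D2:**
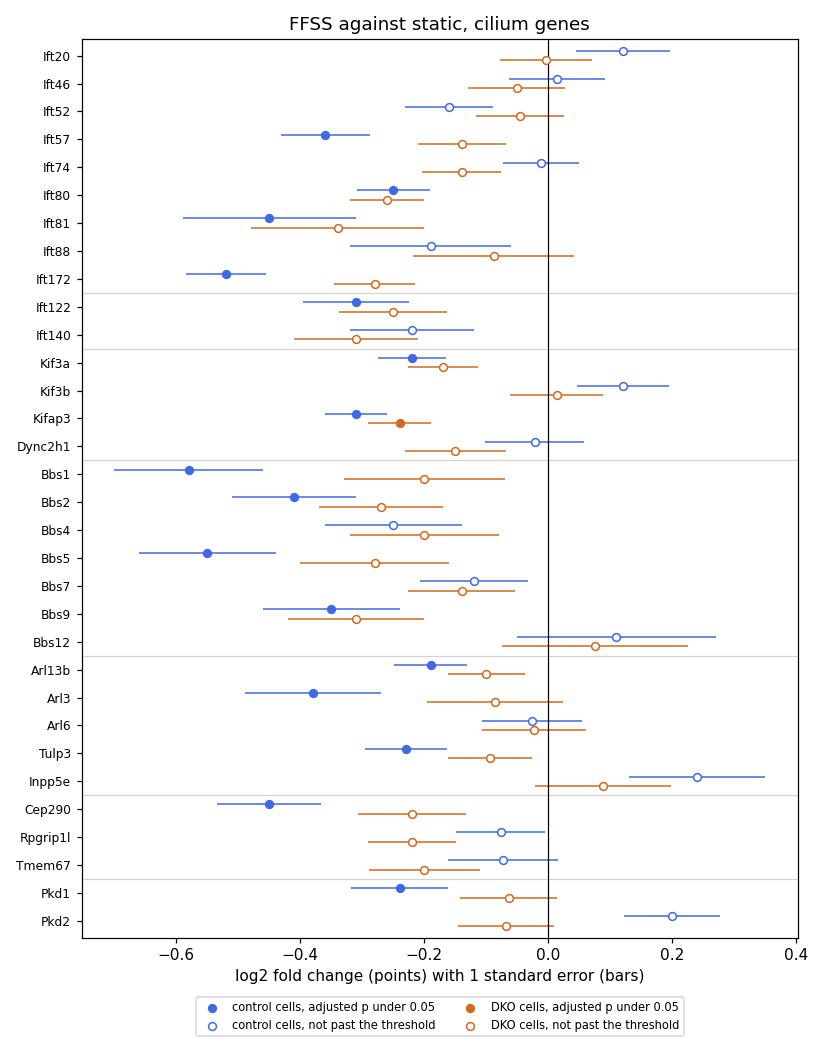
Log2 fold change of FFSS against static (x axis) for each of 32 cilium genes, in control cells (blue) and DKO cells (orange); bars are 1 standard error, and filled points have an adjusted p under 0.05 (edgeR). Most points lie left of 0 in both, with 16 filled in control cells and 1, Kifap3, in DKO cells.

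The complex B gene Ift172, whose product is a peripheral subunit needed for turnaround at the cilium tip, was at 49.8, 54.4 and 52.1 CPM in static and 35.7, 34.3 and 38.8 CPM in sheared control libraries, and at 38.1, 39.1 and 39.7 CPM in static and 32.6, 31.8 and 31.9 CPM in sheared DKO libraries. All control FFSS values lay below all control static values, and all DKO FFSS values below all DKO static values. Its log2 fold change under FFSS in control cells was -0.52 ± 0.064 (SE, adjusted p = 7.25e-05), and -0.51 without FFSS replicate 1. Ift57, Ift80 and Ift81 of complex B fell as well, by 0.36, 0.25 and 0.45 on the log2 scale, and the values of Ift57 and Ift80 were -0.41 and -0.28 without FFSS replicate 1. Ift81, which with Ift74 binds tubulin, was lowest in the library that stood apart (10.9 CPM, against 15.9 and 14.8 in replicates 2 and 3), and its log2 fold change was -0.31 without that library. In complex A, Ift122 fell by 0.31 (-0.41 without FFSS replicate 1), while Ift140 had a log2 fold change of -0.22 (adjusted p = 0.101). Ift88 was at 6.61, 6.20 and 7.16 CPM in control static and 5.19, 6.64 and 5.60 in control FFSS libraries. These ranges overlapped, with a log2 fold change of -0.19 ± 0.13 (adjusted p = 0.247). Its levels in DKO cells were 6.98, 7.57 and 7.11 CPM static and 6.75, 6.07 and 7.55 CPM under FFSS.

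Among the BBS genes, Bbs1 and Bbs5, both subunits of the BBSome, had the lowest log2 fold changes of all members beside Ift172. Bbs1 was at 18.9, 18.1 and 19.3 CPM in control static and 15.1, 10.7 and 12 in control FFSS libraries. Static DKO libraries held 16.0, 14.2 and 17.9 CPM and DKO FFSS libraries 15.0, 12.4 and 14.6. The control groups did not overlap and the DKO groups did, and the log2 fold change in control cells was -0.58 ± 0.12 (adjusted p = 0.00360), or -0.72 without FFSS replicate 1, the library nearest to static. With the share of reads outside genes as a covariate it was -0.28 (adjusted p = 0.241). Bbs5 was at 9.94, 9.74 and 8.58 CPM in static and 6.53, 5.81 and 6.93 CPM in sheared control libraries, and at 5.72, 5.54 and 5.78 CPM in static and 4.59, 4.34 and 5.09 CPM in sheared DKO libraries. The 4 groups did not overlap, and the log2 fold change under FFSS in control cells was -0.55 ± 0.11 (adjusted p = 0.00241), and -0.56 without FFSS replicate 1. Bbs2 and Bbs9 fell by 0.41 and 0.35 on the log2 scale (-0.46 and -0.47 without FFSS replicate 1). With the covariate they had -0.31 and -0.069 (adjusted p = 0.167 and 0.803), and Bbs9 had -0.25 (adjusted p = 0.0993) without FFSS replicate 3. Bbs4, Bbs7 and Bbs12 did not pass, with values of -0.25, -0.12 and 0.11.

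Of the heterotrimeric kinesin-2, the motor subunit Kif3a and the adaptor Kifap3 fell in control cells, by 0.22 ± 0.055 and 0.31 ± 0.050 (adjusted p = 0.00737 and 0.000547), with values of -0.23 and -0.33 without FFSS replicate 1. Kif3a lost the call with library totals alone (-0.10, adjusted p = 0.188), in the 6 control libraries alone (-0.22, 0.0709) and with the share of reads outside genes as a covariate (-0.18, 0.156). Kif3b, the second motor subunit, had a log2 fold change of 0.12 (adjusted p = 0.237). Kifap3 was at 86.4, 88.7 and 89.6 CPM in static and 72.7, 69.4 and 71.3 CPM in sheared control libraries, and at 64.3, 62.9 and 64.4 CPM in static and 52.9, 54.9 and 54.2 CPM in sheared DKO libraries. Kif3a was at 78.8, 72.7 and 73.5 CPM in static and 65.4, 65.7 and 61.8 CPM in sheared control libraries, and at 54.6, 54.5 and 53.2 CPM in static and 47.4, 48.3 and 48.1 CPM in sheared DKO libraries. In both genes the groups stood in this order with no overlap.

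In the remaining groups Arl3, Tulp3 and Arl13b fell by 0.38, 0.23 and 0.19 on the log2 scale, and Cep290, a large transition zone linker, by 0.45. Without FFSS replicate 1 the values of Tulp3, Arl13b and Cep290 were -0.22, -0.16 and -0.42. Arl3 rested on 2 libraries, with 77.0 CPM in FFSS replicate 1 against 55.6 and 52.7 in replicates 2 and 3 and 79.0 to 83.2 CPM in static libraries, and its log2 fold change was -0.57 without replicate 1. The polycystins differed in sign. Pkd1 was at 166, 163 and 162 CPM in control static and 134, 125 and 156 in control FFSS libraries, with a log2 fold change of -0.24 ± 0.078 (adjusted p = 0.0267; -0.22 without FFSS replicate 1), while DKO libraries held 132, 139 and 147 CPM static and 140, 123 and 137 CPM under FFSS. Pkd2 was at 132, 130 and 127 CPM in static and 126, 161 and 159 CPM in sheared control libraries, and at 181, 178 and 177 CPM in static and 175, 163 and 174 CPM in sheared DKO libraries. Replicate 1 was the one control FFSS library of Pkd2 below the static range, and the log2 fold change went from 0.20 ± 0.077 (adjusted p = 0.0599) to 0.30 (adjusted p = 4.85e-06) without it.

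**Figure D3:**
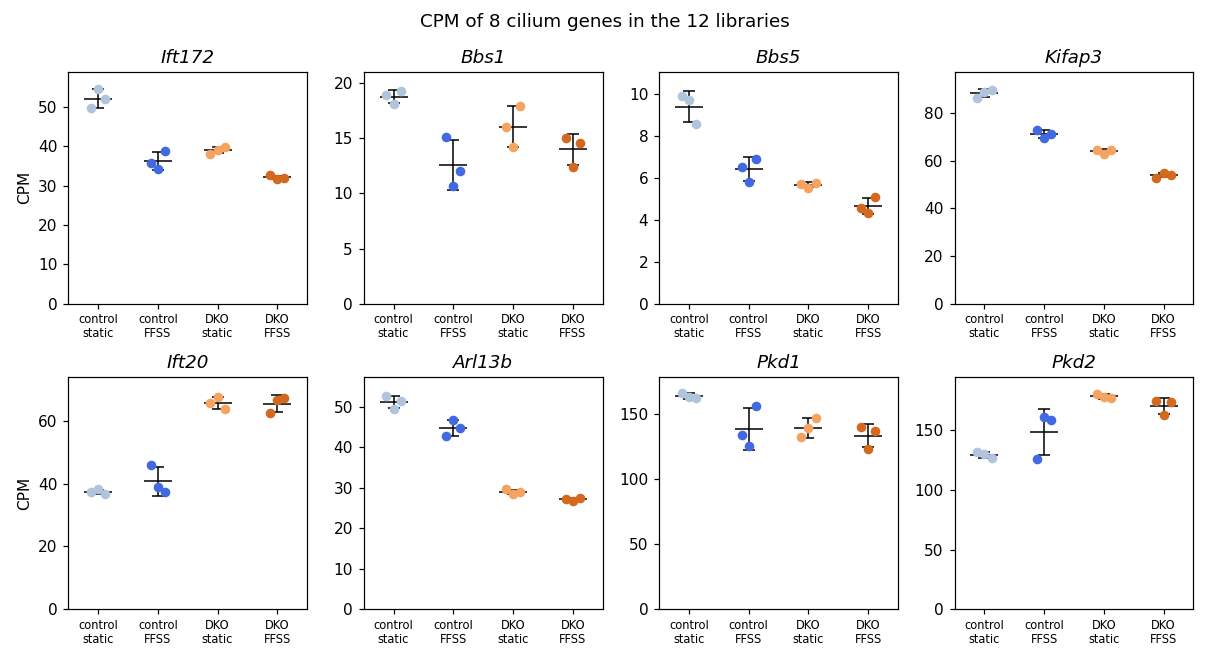
CPM (y axis, from 0) of 8 cilium genes in the 12 libraries, by group; points are libraries, black lines the mean and SD of 3 libraries. Bbs5, Kifap3 and Arl13b step down from control static to DKO FFSS cells, and Ift20 is higher in DKO cells. The SD of control FFSS libraries is largest in CPM for Pkd1 and Pkd2 (16.0 and 19.8). Relative to the mean it is largest for Bbs1 (2.21 CPM at a mean of 12.6).

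Scaled by library totals alone, which moved the median of all genes to 0.13, 8 members were lower (background 11.2%) and 4 higher (background 27.5%), with a member median of -0.10. Without control FFSS replicate 1, 18 members were lower (background 28.3%) and 3 were higher (Kif3b, Inpp5e and Pkd2, background 26.7%), with a median of -0.21. In the 6 control libraries alone 8 members were lower, a fit whose share of all genes is not given here. Ift81, Ift122, Kif3a, Bbs9, Arl13b, Arl3, Tulp3 and Pkd1 then lost the call. The 6 DKO libraries fitted alone gave 9 members lower in DKO cells (background 5.68%). With the share of reads outside genes as a covariate, 9 were lower (background 8.51%) and 1, Ift20, was higher (background 6.86%), and Ift57, Ift80, Ift122, Kif3a, Bbs1, Bbs2, Bbs9 and Arl3 no longer passed. Taken by library against the control static mean, the member median was -0.17, -0.19 and -0.24 in FFSS replicates 1, 2 and 3, with 26, 24 and 28 of 32 members below 0. All 3 medians were below 0, that of the library that stood apart included.

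In DKO cells the members leaned the same way, but 1 of 32 passed the test. Kifap3 fell by 0.24 ± 0.051 on the log2 scale (edgeR, adjusted p = 0.0428), which is 3.12% of the members beside 0.497% of all genes lower. No member passed the 2-fold limit, which 0.0872% of all genes passed. None passed upwards, by edgeR or DESeq2, and 14 had an unadjusted p under 0.05 in either direction. The median log2 fold change was -0.15, beside -0.0094 over all genes, 29 of 32 members were below 0, and in 21 members all 3 FFSS libraries lay below all 3 static libraries, against 15.9% of all genes. By library, the member median against the DKO static mean was -0.14, -0.17 and -0.14, with 29, 27 and 27 members below 0. All 3 transition zone genes had non-overlapping groups with log2 fold changes between -0.22 and -0.20, as did both complex A genes (-0.25 for Ift122 and -0.31 for Ift140), although none of these 5 passed.

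The count of members that passed in DKO cells differed between fits. It was 9 when the 6 DKO libraries were fitted alone (background 5.68%) and also 9 when control FFSS replicate 1 was left out (background 5.66%), with Ift80, Ift81, Ift122, Ift140, Ift172, Kif3a, Kifap3, Bbs9 and Rpgrip1l in both. DESeq2 gave 3 (Ift80, Ift172 and Kifap3; background 1.44%), and the share of reads outside genes as a covariate 6 (background 4.93%). Kifap3 itself lost the call when any 1 control static or DKO library was left out, with log2 fold changes from -0.26 to -0.23.

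The difference between the FFSS effects in DKO and in control cells was tested as an interaction, and no member passed, where 3.97% of all genes did and 0.651% also passed the 2-fold limit. DESeq2 found none either, and 3 members had an unadjusted p under 0.05. Interaction log2 values, the DKO effect minus the control effect, ran from -0.27 (Pkd2, adjusted p = 0.163) to 0.38 (Bbs1, 95% interval -0.0014 to 0.76, adjusted p = 0.212), with a median of 0.047. For Kif3a the interval was -0.12 to 0.22, for Arl13b -0.085 to 0.28, for Pkd1 -0.057 to 0.42 and for Ift88 -0.28 to 0.49. The 16 members that fell in control cells were all below 0 in DKO cells too, 15 of them closer to 0, with medians of -0.35 and -0.23; they were chosen on the control effect, so this is a description. Without control FFSS replicate 1, Ift57, Ift172, Bbs1 and Arl3 passed above 0 (0.27, 0.23, 0.53 and 0.49) and Pkd2 below 0 (-0.37), beside 19.9% and 17.7% of all genes.

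**Figure D4:**
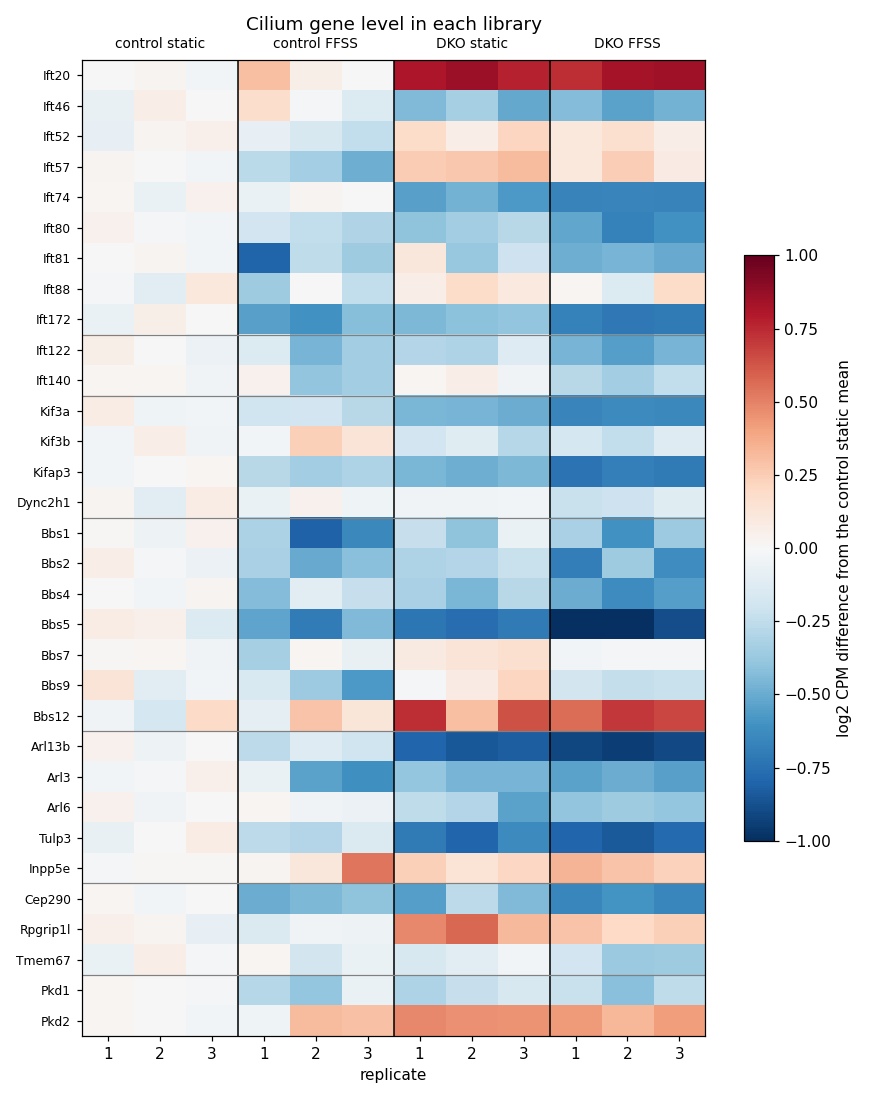
Log2 CPM of 32 cilium genes (rows, grouped by role) in each library minus the gene's control static mean; blue is lower and red is higher, and colours end at 1 in either direction. Ift20 and Bbs12 are red and Arl13b, Tulp3 and Bbs5 blue throughout DKO cells, and control FFSS replicate 1 differs from replicates 2 and 3 in Ift81, Arl3 and Pkd2.

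Between static DKO and control cells 22 of 32 members differed, 17 lower and 5 higher. These are 53.1% and 15.6% of the members, beside 27.2% and 27.0% of all genes (edgeR, adjusted p under 0.05). The median log2 fold change was -0.23, beside 0.010 over all genes. In 18 members all DKO libraries lay below all control libraries (34.1% of all genes) and in 8 above (34.9%). None passed the 2-fold limit, which 15.3% of all genes passed, and the highest factor was 1.77. Leaving out 1 library at a time, 12 of the 17 lower members and all 5 higher members kept the call, and Ift122, Kif3b, Bbs2, Bbs4 and Pkd1 lost it at least once, with adjusted p values up to 0.153. This comparison shares the control static libraries with FFSS in control cells, so values of a gene in both are not independent.

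**Figure D5:**
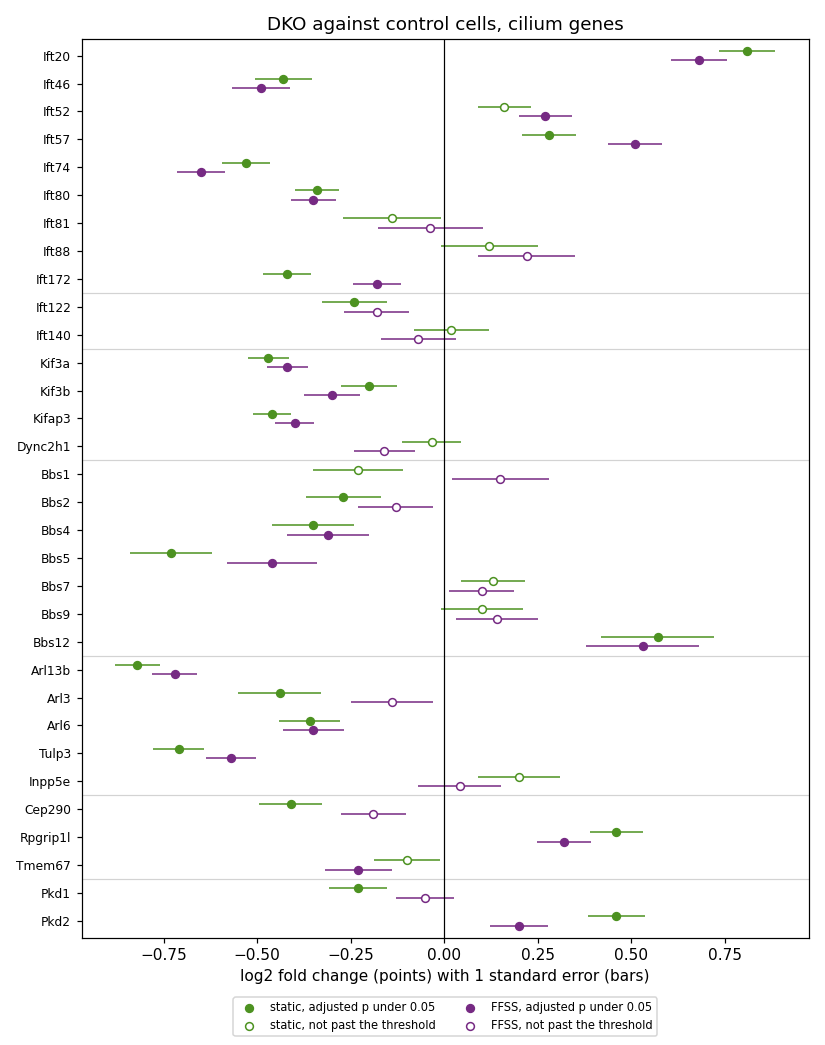
Log2 fold change of DKO against control cells (x axis) for each of 32 cilium genes, static (green) and under FFSS (purple); bars are 1 standard error, and filled points have an adjusted p under 0.05 (edgeR). Arl13b lies lowest (-0.82 static) and Ift20 highest (0.81 static).

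Arl13b, the small GTPase that defines the ciliary membrane and activates Arl3, was at 52.7, 49.6 and 51.5 CPM in static and 42.8, 46.8 and 44.8 CPM in sheared control libraries, and at 29.6, 28.5 and 28.9 CPM in static and 27.3, 26.7 and 27.4 CPM in sheared DKO libraries. The groups did not overlap, and the log2 fold change of DKO against control cells was -0.82 ± 0.060 (adjusted p = 5.99e-08) static and -0.72 ± 0.060 (adjusted p = 2.30e-07) under FFSS. Tulp3, which brings receptors and Arl13b into the cilium, was at 60.5, 63.7 and 67.3 CPM in static and 53.1, 52.1 and 57.6 CPM in sheared control libraries, and at 39.1, 36.9 and 41.1 CPM in static and 36.8, 35.6 and 37.3 CPM in sheared DKO libraries. DKO and control libraries did not overlap, with log2 fold changes of -0.71 ± 0.067 static and -0.57 ± 0.067 under FFSS (adjusted p = 7.07e-07 and 6.26e-06). Arl6, the GTPase that recruits the BBSome, was lower in DKO cells in both conditions (-0.36 and -0.35), and Arl3 was lower in static cells (-0.44) but not past the test under FFSS (-0.14). Inpp5e, the phosphatase that sets the lipids of the ciliary membrane, passed in neither (0.20 and 0.041).

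Complex B genes moved in both directions. Ift20 was at 37.4, 38.2 and 36.9 CPM in static and 46.1, 39.0 and 37.4 CPM in sheared control libraries, and at 65.7, 67.8 and 63.8 CPM in static and 62.5, 66.9 and 67.4 CPM in sheared DKO libraries. Every DKO library lay above every control library, by 0.81 ± 0.075 on the log2 scale in static cells (adjusted p = 6.54e-07) and 0.68 ± 0.075 under FFSS (adjusted p = 3.14e-06). Ift74 was at 40.1, 37.7 and 40.7 CPM in static and 37.8, 40.3 and 39.4 CPM in sheared control libraries, and at 27.1, 28.5 and 26.5 CPM in static and 24.8, 25.0 and 24.8 CPM in sheared DKO libraries. It was lower in every DKO library, with log2 fold changes of -0.53 and -0.65 ± 0.063. Ift57, an outer subunit of complex B, was at 33.8, 33.1 and 32.4 CPM in static and 27.4, 26.2 and 23.6 CPM in sheared control libraries, and at 39.4, 39.9 and 41.2 CPM in static and 35.6, 39.1 and 35.0 CPM in sheared DKO libraries. It was higher in DKO cells, by 0.28 static (adjusted p = 0.00388) and 0.51 under FFSS (adjusted p = 3.54e-05), with no overlap in either condition. Ift46, Ift80 and Ift172 were lower in DKO cells in both conditions, with log2 fold changes of -0.43, -0.34 and -0.42 static and -0.49, -0.35 and -0.18 under FFSS. The call of Ift172 under FFSS (adjusted p = 0.0326) was lost without any 1 DKO FFSS library or control FFSS replicate 3 (-0.18 to -0.12, adjusted p up to 0.125), and by DESeq2, with no filter and in the 6 libraries alone. Ift88 had log2 fold changes of 0.12 and 0.22, with adjusted p values of 0.458 and 0.151.

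All 3 subunits of kinesin-2 were lower in DKO cells in both conditions. Static log2 fold changes were -0.47 ± 0.055 for Kif3a, -0.46 ± 0.050 for Kifap3 and -0.20 ± 0.075 for Kif3b (adjusted p = 5.77e-06, 2.67e-06 and 0.0379). The static call of Kif3b was lost without any 1 control static library, DKO static replicate 1 or 3 or DKO FFSS replicate 1 (-0.22 to -0.15, adjusted p from 0.0537 to 0.153), and with no filter on low counts. Dync2h1, which moves complexes back to the base, had -0.034 static and -0.16 under FFSS and passed in neither. The BBS genes were divided: Bbs5 (-0.73), Bbs4 (-0.35) and Bbs2 (-0.27) were lower in static DKO cells, and Bbs12, a chaperonin-like gene that helps assemble the BBSome, was higher. Bbs12 was at 3.91, 3.54 and 4.58 CPM in static and 3.75, 4.88 and 4.36 CPM in sheared control libraries, and at 6.71, 4.94 and 6.22 CPM in static and 5.92, 6.54 and 6.38 CPM in sheared DKO libraries. DKO libraries lay above control libraries of the same condition (0.57 ± 0.15 static, adjusted p = 0.00604; 0.43 and 0.0502 with the share of reads outside genes as a covariate), but Bbs12 shares 32 exon bases each with Cetn4 and Fgf2.

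In the transition zone, Rpgrip1l, a scaffold protein, was at 41.8, 41.2 and 38.1 CPM in static and 36.6, 39.3 and 38.9 CPM in sheared control libraries, and at 56.2, 60.1 and 50.6 CPM in static and 49.1, 46.3 and 47.6 CPM in sheared DKO libraries. It was higher in every DKO library, by 0.46 ± 0.071 and 0.32 ± 0.072 (adjusted p = 7.80e-05 and 0.00176). Cep290 was lower in static DKO cells (-0.41) and Tmem67, a membrane receptor of the zone, under FFSS (-0.23, adjusted p = 0.0410; -0.18 and 0.101 without control FFSS replicate 1). Of the polycystins, Pkd1 was lower (-0.23 ± 0.078, adjusted p = 0.0214) and Pkd2 higher (0.46 ± 0.077, adjusted p = 0.000163) in static DKO cells. All 6 static libraries of Pkd2 separated by genotype, as did those of Pkd1.

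Under FFSS, 13 members were lower and 6 higher in DKO than in control cells, 40.6% and 18.8% beside 29.6% and 27.0% of all genes, with a median of -0.15 (-0.051 over all genes). Non-overlapping groups were found in 15 members downwards and 6 upwards, against 30.0% and 28.4% of all genes. None passed the 2-fold limit, which 17.2% of all genes passed. Ift52, a core subunit of complex B, joined the higher genes (0.27, adjusted p = 0.00514). Bbs1, Bbs2, Arl3, Cep290, Ift122 and Pkd1 had values of 0.15, -0.13, -0.14, -0.19, -0.18 and -0.052 and did not pass. Pkd2 was 0.20 ± 0.077 higher (adjusted p = 0.0432), and 0.088 (adjusted p = 0.111) without control FFSS replicate 1. That call was also lost without any 1 of 8 other libraries (adjusted p from 0.0534 to 0.116), with the replicate number as a block (0.0547), with filterByExpr (0.0586) and in the 6 libraries alone (0.114). Scaled by library totals alone, where the median of all genes was -0.25, 20 members were lower (background 42.2%) and 2 higher (background 18.5%), with a member median of -0.34. Without control FFSS replicate 1, 12 were lower (background 34.0%) and 7 higher (background 31.0%): Tmem67 and Pkd2 no longer passed, and Bbs1 (0.30) and Bbs9 (0.25) passed as higher. Arl13b, Tulp3, Ift74, Ift57 and Ift20 then had log2 fold changes of -0.76, -0.59, -0.68, 0.55 and 0.78. Leaving out other libraries singly, Ift172, Bbs4, Tmem67 and Pkd2 lost the call at least once, Tmem67 without any 1 of 7 others. This comparison shares its control libraries with FFSS in control cells.

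Other genes of the cilium were compared as lists, whose counts stand beside 18.1% of all genes lower and 17.7% higher in control cells under FFSS, 0.497% and 0.376% in DKO cells, and 27.2% and 27.0% in static DKO against control cells. Of 15 further IFT and dynein-2 genes, 9 fell and 1 rose in control cells under FFSS (median -0.27), 0 of 15 passed in DKO cells (3 at an unadjusted p under 0.05), and 6 were lower and 5 higher in static DKO cells. Ttc21b, a subunit of complex A, was at 52.3, 49.5 and 51.5 CPM in static and 30.9, 25.9 and 23.9 CPM in sheared control libraries, and at 76.8, 76.1 and 71.5 CPM in static and 65.7, 69.3 and 66.4 CPM in sheared DKO libraries. It fell by 0.93 ± 0.082 under FFSS in control cells (adjusted p = 6.65e-06), and was higher in DKO cells by 1.32 ± 0.082 under FFSS (-1.04 and 1.43 without control FFSS replicate 1). Of 5 further BBS genes, 2 fell and 1 rose in control cells, and Bbs10 was higher in DKO cells (1.75 static and 1.13 under FFSS). Of 20 transition zone and basal body genes, 5 fell in control and 2 in DKO cells, and in static DKO cells Tctn2 (1.36) and Mks1 (1.05) were higher. Tctn2 was also higher under FFSS (1.60, and 1.90 without control FFSS replicate 1).

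Of the 18 Hedgehog pathway genes 15 were tested; 3 fell and 2 rose in control cells under FFSS, and none passed in DKO cells, where 4 had an unadjusted p under 0.05. Gli2, a transcription factor of the pathway that passes through the cilium, was 43.0 to 45.2 CPM in control static and 4.94 to 5.77 CPM in DKO static libraries, and log2 fold changes of DKO against control cells were -3.08 static and -3.30 under FFSS (-3.18 without control FFSS replicate 1). Gli3 (-1.06 static) was lower as well, and the ligand Ihh was higher under FFSS (2.57). Control FFSS replicate 1 held 12.4 CPM of Ihh against 2.10 and 2.87 in replicates 2 and 3, and without it the log2 fold change was 3.78. Gli1 and Ptch1, both transcribed in response to the pathway, passed neither FFSS in control cells (-0.068 and -0.35) nor DKO against control static (-0.34 and -0.46). Without control FFSS replicate 1, Ptch1 fell by 0.76 in control cells (adjusted p = 4.00e-06). Its static difference passed, at the same -0.46, without control FFSS replicate 1 or 2 (adjusted p = 0.000121 and 0.0297) and in the 6 static libraries alone (1.35e-09). Gli1 was 15.7 to 18.7 CPM in control static and 13.1 to 13.8 CPM in DKO static libraries, without overlap, and its difference passed in those 6 libraries alone (-0.33, adjusted p = 0.00126) and without control FFSS replicate 2 (-0.34, 0.0203).

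Among 5 RFX factors tested of 7, 2 rose under FFSS in control cells, Rfx5 by 0.71 and Rfx7 by 0.47 (0.92 and 0.63 without control FFSS replicate 1), and Rfx2 fell. With the share of reads outside genes as a covariate neither Rfx5 nor Rfx7 passed (0.059 and 0.0091). Rfx3, a main ciliary member of the family, was near 0 under FFSS in control cells (-0.018, adjusted p = 0.935) and had -0.21 in static DKO cells. Rfx5, which regulates antigen presentation genes, was lower in DKO cells under FFSS (-1.20, and -1.40 without control FFSS replicate 1). Rfx2, which like Rfx7 was chosen after its values were seen, was at 18.9, 17.9 and 16.8 CPM in static and 10.7, 10.8 and 10.2 CPM in sheared control libraries, and at 10.5, 10.9 and 12.1 CPM in static and 8.18, 9.58 and 9.12 CPM in sheared DKO libraries. It fell by 0.75 ± 0.093 under FFSS in control cells (adjusted p = 7.56e-05; -0.77 without FFSS replicate 1) and was lower in static DKO cells (-0.68). Hdac6, a deacetylase of tubulin that acts in cilium disassembly, rose by 0.27 under FFSS in control cells (adjusted p = 0.0106; 0.33 without FFSS replicate 1, and 0.22 with an adjusted p of 0.0513 without control static replicate 1; 0.065 and 0.670 with the covariate, and 0.0781 in the 6 libraries alone) and was lower in static DKO cells (-0.25). In the disassembly list of 7 genes, 1 rose and 0 fell in control cells, with 2 at an unadjusted p under 0.05. In DKO against control cells 4 of the 7 were lower and 1 higher static, and 5 were lower and 0 higher under FFSS, where 29.6% and 27.0% of all genes were lower and higher. Of 5 polycystin relatives and ciliary calcium or cAMP genes tested, 1 fell under FFSS in control cells and 2 were higher in static DKO cells. Among 3 motile cilium markers tested, Ccdc39 was higher in static DKO cells (1.22), at no more than 2.44 CPM.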

How the data were processed

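The deposited files give, per gene, raw counts of reads that the authors obtained by aligning single-end reads with STAR to the mm9 mouse genome and counting with HTSeq, not stranded, with no normalisation. HTSeq leaves out reads that map to several places or to shared bases. Totals, floors and shares outside genes come from the 12 files, whose 5 summary lines stayed out of the tests. Symbols, exon lengths and positions came from an annotation of the same build.

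Genes with 0 counts in 2 or more libraries were removed, as in the study's methods, leaving 14904. All 12 libraries were fitted as 4 groups with edgeR 4.0.16 (TMM, robust quasi-likelihood) in R 4.3.3, with limma 3.58.1 installed, and p-values were Benjamini-Hochberg adjusted over all genes. A member passed at an adjusted p under 0.05 and was called if it also changed over 2-fold. The standard error came from the fold change and its F statistic, and intervals of fold changes from it and the degrees of freedom of the test. On simulated counts for FFSS in control cells (14655 genes), 9.23% of 65 genes changed 1.25-fold, 58.2% of 67 changed 1.5-fold and 67.2% of 64 changed 2-fold passed, beside 0.0207% of unchanged genes. The simulation changed 200 genes, whereas 18.1% of all genes were lower and 17.7% higher in the data. The adjusted threshold was therefore stricter in the simulation, and its rates do not give the share detected in the data. Intervals of count ratios and floors cover counting error only.

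Per-library values are given for the 3 highest and 3 lowest members past the adjusted p in each contrast and for Ift88, Kif3a, Arl13b, Pkd1 and Pkd2. Genes of other lists are named if called, at most 3 per list and contrast, with Rfx3, Gli1, Ptch1 and Hdac6 always. Some genes named by this rule are not reported here. The members and lists were chosen with earlier results of these data known. Alternatives were RLE factors, library totals alone, filterByExpr, no filter, DESeq2 1.42.0, the 6 libraries of a comparison, a replicate block, the share of reads outside genes as a covariate, and leaving out each library.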

Additional observations from a re-analysis of the deposited data

Results flagged for a closer look

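The FFSS effect on Ttc21b, which encodes a complex A subunit and belongs to the list of further IFT genes, differed between genotypes by the interaction test: the DKO effect minus the control effect was 0.77 ± 0.11 on the log2 scale (edgeR, adjusted p = 0.00282). Its level fell in all 3 control FFSS libraries, to between 23.9 and 30.9 CPM from between 49.5 and 52.3 CPM, and its log2 fold change in DKO cells was -0.16 (adjusted p = 0.418). Without control FFSS replicate 1 the difference was 0.88 (adjusted p = 3.09e-09). Groups of 3 libraries were too small for a search for single outlying values.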

How the results depend on the processing

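The fold changes of the cilium genes were small, and the counts of members past the threshold moved with the scaling, the spread estimate and single libraries. Scaling by library totals alone moved the median of all genes from 0.0073 to 0.13 in control cells under FFSS and from -0.051 to -0.25 in DKO against control cells under FFSS. Relative to 0 it left 8 members lower and 4 higher in control cells under FFSS, 0 lower in DKO cells, and 20 lower and 2 higher in DKO against control cells under FFSS. It turned the median interaction to -0.067, the interactions of Ift88, Kif3a and Arl13b to -0.0097, -0.066 and -0.019, Pkd2 in DKO against control cells under FFSS to -0.0069, and Gli1 and Rfx3 under FFSS in control cells to 0.053 and 0.10.

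With the share of reads outside genes as a covariate, 9 members were lower and 1 higher in control cells and 6 passed below 0 in DKO cells. Because that share differed between static and FFSS libraries, this fit can take up part of the FFSS effect. Under FFSS in control cells Arl3, Pkd2, Ptch1 and Rfx3 turned to 0.025, -0.093, 0.34 and 0.14, and Ptch1 in static DKO cells to 0.00084, none past the threshold. A fit of the 6 libraries of a comparison gave 8 lower in control cells, where the main fit gave 16, and 9 in DKO cells, where it gave 1. In that DKO fit 5.68% of all genes were lower, and the share in the control fit is not given. Such a fit could not be made for the interaction. DESeq2 gave 3 lower in DKO cells, filterByExpr 1 higher in control cells, and no filter on low counts 0 lower in DKO cells and 1 called in DKO against control cells under FFSS, Kif17 (-3.31, adjusted p = 0.0125), on its few counts.

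Leaving out 1 library at a time gave 11 to 18 members lower and 0 to 3 higher in control cells under FFSS, 0 to 9 lower in DKO cells, and 0 to 4 above and 0 to 1 below in the interaction. The highest of these counts came without control FFSS replicate 1, where the shares of all genes rose as well. Lower were then 28.3% in control cells (18.1% in the main fit) and 5.66% in DKO cells (0.497% in the main fit). Shares for the other single libraries are not given. Pkd1 in DKO against control cells under FFSS ranged from -0.12 to 0.044, and Gli1 and Rfx3 under FFSS in control cells from -0.33 to 0.21 and from -0.074 to 0.062. The cause of these changes was not tested.

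The replicate numbers did not pair the samples: deviations of same-numbered libraries correlated by 0.00226 on average (-0.0603 to 0.0631 over 18 pairs). With the number as a block, 0 members were lower in DKO cells under FFSS, in place of 1, and other counts stayed within 1.5 times.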
